A study of Mus musculus with 4 samples.

Results

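The genes described here are the mouse collagen and laminin chain genes, with 4 others: Nid1, Nid2, Hspg2 and Sparc. The products of Nid1, Nid2 and Hspg2 link laminin and collagen IV in the basement membrane, and that of Sparc binds collagen. These 4 are grouped below as linkers. A gene was taken when its symbol had the form of a collagen chain (Col, a type number, a and a chain number) or of a laminin alpha, beta or gamma chain, or was one of those 4, and when its counts summed over the 4 libraries reached 10. Of 59 such symbols, 55 reached that sum, among 23420 genes in the count table. The count sum chose nothing but presence: just inside the limit lay Lamc3 with 13 counts and Col4a4 with 14, and just outside it Col10a1, Col28a1 and Col4a3 with 8 each and Col19a1 with 6. RNA sequencing counts were available for wild type mouse embryonic stem cells of the E14 line, grown on gelatin with serum and leukemia inhibitory factor (LIF) and no feeder layer. The control group was 2 libraries sampled at 0 h, and the ATRA group was 2 libraries of cells given all-trans retinoic acid (ATRA) at 1 µM and sampled 24 h later. ATRA binds and activates the retinoic acid receptors. The micromolar dose is that of the titles, although a treatment label has a millimolar unit. The labels name dimethyl sulfoxide as vehicle without saying whether the 0 h cells received it, and do not say whether LIF was kept during the treatment. The series title concerns RXR and neurogenesis, and the comparison asks which transcripts differ between treated and 0 h cells. Since the control is a 0 h sample, ATRA and 24 h of culture cannot be told apart. No label says that the libraries came from separate cultures, so the p-values rest on a spread that may be only technical.

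Basement membranes are thin sheets of extracellular matrix built on laminins and collagen IV. A laminin is a trimer of an alpha, a beta and a gamma chain, a collagen IV molecule is a trimer of alpha chains, and nidogens and perlecan (encoded by Hspg2) connect the networks. Fibrillar collagens form the fibrils of connective tissue, FACIT collagens sit on the surface of those fibrils, and collagen VI forms beaded filaments. Embryonic stem cells and the early embryo make laminin well before tissue fibrils appear, and in F9 teratocarcinoma cells the genes Lamb1, Col4a1 and Col4a2 are classical late targets of retinoic acid treatment, switched on as those cells become parietal endoderm.

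The promoters of 4 of these genes are printed as examples, and no result below rests on them. Col4a1 and Col4a2 lie head to head and share a promoter, Lamb1 is the beta chain of the common early laminins, and Col6a5 gave the smallest p of all members. Each window is RefSeq's, on GRCm38.p6, from 250 bases before to 50 bases after the annotated start, on the strand of the gene and 5′ to 3′. Capitals mark the GC box GGGCGG on either strand. The windows are Col4a1 at chr8:11312777-11313076 (minus strand), Col4a2 at chr8:11312555-11312854 (plus strand), Lamb1 at chr12:31265043-31265342 (plus strand) and Col6a5 at chr9:105960594-105960893 (minus strand).
Col4a1: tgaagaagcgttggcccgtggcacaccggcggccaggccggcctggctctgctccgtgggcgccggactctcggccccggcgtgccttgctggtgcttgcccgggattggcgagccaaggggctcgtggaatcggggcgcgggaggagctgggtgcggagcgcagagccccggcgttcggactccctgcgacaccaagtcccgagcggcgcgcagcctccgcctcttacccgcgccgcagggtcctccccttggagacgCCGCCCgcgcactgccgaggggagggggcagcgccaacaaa
Col4a2: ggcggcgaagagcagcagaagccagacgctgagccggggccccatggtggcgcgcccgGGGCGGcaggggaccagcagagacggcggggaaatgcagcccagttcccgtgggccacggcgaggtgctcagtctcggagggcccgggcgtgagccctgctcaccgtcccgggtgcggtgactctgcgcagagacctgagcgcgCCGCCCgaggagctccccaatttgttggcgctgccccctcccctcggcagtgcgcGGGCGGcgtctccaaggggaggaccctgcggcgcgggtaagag
Lamb1: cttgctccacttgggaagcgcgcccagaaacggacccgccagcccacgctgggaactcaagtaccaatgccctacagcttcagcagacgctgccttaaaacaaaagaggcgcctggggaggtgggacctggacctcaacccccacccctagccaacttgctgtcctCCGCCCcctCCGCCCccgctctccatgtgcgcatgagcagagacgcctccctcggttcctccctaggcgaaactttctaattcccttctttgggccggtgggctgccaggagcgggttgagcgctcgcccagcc
Col6a5: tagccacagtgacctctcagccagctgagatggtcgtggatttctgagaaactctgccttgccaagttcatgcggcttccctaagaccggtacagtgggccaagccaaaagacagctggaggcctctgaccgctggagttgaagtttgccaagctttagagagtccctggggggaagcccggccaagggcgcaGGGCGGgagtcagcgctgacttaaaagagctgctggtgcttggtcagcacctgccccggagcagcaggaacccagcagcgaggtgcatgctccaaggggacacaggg
The Col4a1 and Col4a2 windows overlap by 78 bases, at 11312777 to 11312854 of chromosome 8, so part of the sequence is printed on both strands. GC content was 74.0% in the Col4a1 window, 73.7% for Col4a2, 63.7% for Lamb1 and 60.0% for Col6a5. The window of Lamb2 was also read and is not printed. It had a GC content of 44% and 0 GC boxes, unlike the printed windows. RefSeq windows were matched for 40 of the 55 members, with 44 windows in all because some genes have more than 1 start. The GC box was in 63.6% of the member windows and in 35.7% of all 32851 windows of that length. The member windows were also richer in GC, with a median of 60% against 52.7% over all windows. The part of GC content in the difference was not tested. The bases shared by Col4a1 and Col4a2 hold a GC box, which lies in both windows. The box TATAAA was in 9.09% against 13.6%, and CCAAT in 34.1% against 37.4%. The half-site AGGTCA was in 18.2% of the member windows and 16.3% of all, and the retinoic acid response element searched for, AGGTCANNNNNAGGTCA, which contains that half-site, was in 0 of the 44 and in 3 of all windows (0.00913%). Both strands were searched for each motif, and the letters say nothing of whether a factor binds.

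Counts in genes were 31005634 and 21484812 in control replicates 1 and 2 and 13337972 and 11086233 in ATRA replicates 1 and 2. The retinoic acid receptor gene Rarb, a direct target that checks the labels, stood at 0.174 ± 0.0688 CPM (counts scaled to library size, mean ± SD, n = 2) in the controls and 38.7 ± 6.71 CPM with ATRA (n = 2). The ATRA libraries differed from each other along the GC content of transcripts: when all genes were split into deciles of GC content, replicate 2 over replicate 1 had a median log2 ratio of 0.85 in the lowest decile and −1.18 in the highest, while that of control replicate 2 to control replicate 1 lay between −0.30 and 0.03 over the deciles. Collagen and laminin transcripts are rich in GC, with a median of 54.8% over the tested members against 50.2% over all tested genes, and 37 of the 46 tested members lay above that second value. Fold changes are therefore given without and with a correction of each library for its GC trend. The correction removes any GC-related difference, whether technical or due to the treatment, and the part of either in the uncorrected values was not tested.

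Without the correction the collagen and laminin genes lay mostly lower after ATRA, and with it they split in both directions. Their summed level was 4092 and 3298 CPM in the controls and 2156 and 1584 CPM in the ATRA libraries, and after GC correction 2613 and 2396 CPM against 2306 and 2735 CPM. The uncorrected sums were lower in both ATRA libraries, and the corrected sums overlapped. In these bulk samples fewer cells making a transcript and less RNA per cell cannot be told apart.

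Of the 55 members, 46 passed the filter on low counts and were tested. Among the 14256 genes tested, 86 changed in the uncorrected fit (0.603%, of which 0.435% higher and 0.168% lower, edgeR's quasi-likelihood test, adjusted p under 0.05), and 0 of the 46 members did. An unadjusted p under 0.05 was reached by 20 of the 46 members, against 40.1% of all tested genes. DESeq2, run on the same counts, called 4 members higher and 12 lower against 11.4% and 18.7% of all genes, 30.1% in all. The median log2 fold change of the 46 members was −0.56 (range −3.06 to 3.68), against −0.02 over all tested genes. Both ATRA libraries lay above both controls for 8 members, against 40.0% of all genes, and below both for 25 members, against 41.5% of all genes, with 13 members overlapping, where 81.4% of all genes did not overlap. ATRA replicate 2 was below ATRA replicate 1 for 30 of the 46. Other settings gave other counts, each with its own background. Size factors of DESeq2 in edgeR called 1 member, Col6a5, beside 1.09% of all genes, and no filter on low counts called 2 higher and 12 lower beside 14.9%. Uncorrected, 0 members were called without control replicate 1 (0.573% of all genes) and 2 without control replicate 2 (2.25%). Without ATRA replicate 1, 10 members were called higher and 22 lower (73.4% of all genes), and without ATRA replicate 2, 6 higher and 15 lower (52.1%).

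With the GC correction, 6 members rose (Col2a1, Col6a5, Col12a1, Col9a1, Col9a3 and Lama4) and 2 fell (Lama1 and Lamb2). On GRCm38, GENCODE places Col2a1 at chr15:97975602-98004695 (minus strand), Col6a5 at chr9:105856078-105960643 (minus strand), Col12a1 at chr9:79598991-79718831 (minus strand), Col9a1 at chr1:24177610-24252684 (plus strand) and Col9a3 at chr2:180597790-180622189 (plus strand). The laminin genes are Lama4 at chr10:38965515-39110188 (plus strand), Lama1 at chr17:67697259-67822647 (plus strand) and Lamb2 at chr9:108479736-108490530 (plus strand). These 8 are 17.4% of the tested members, beside 16.7% of all tested genes, so the share is near the background. By direction, 8.82% of all tested genes were called higher and 7.86% lower. The median log2 fold change of the members was 0.28, against 0.01 over all genes, and 14 members changed sign, 13 of them from below 0 to above it. Both ATRA libraries lay above both controls for 16 members (35.5% of all genes), below both for 15 (34.8% of all genes), and 15 overlapped, where 70.3% of all genes did not. An unadjusted p under 0.05 was reached by 19 members, against 38.3% of all genes. Leaving out either control library ended all 8 calls, in fits that called 0.385% of all genes without control replicate 1 and 0.492% without control replicate 2. Leaving out either ATRA library kept all 8, in fits that called 49.8% of all genes without ATRA replicate 1 and 35.7% without ATRA replicate 2. A correction for GC content and transcript length together called 6 members higher and 2 lower, beside 16% of all genes.

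**Figure D1:**
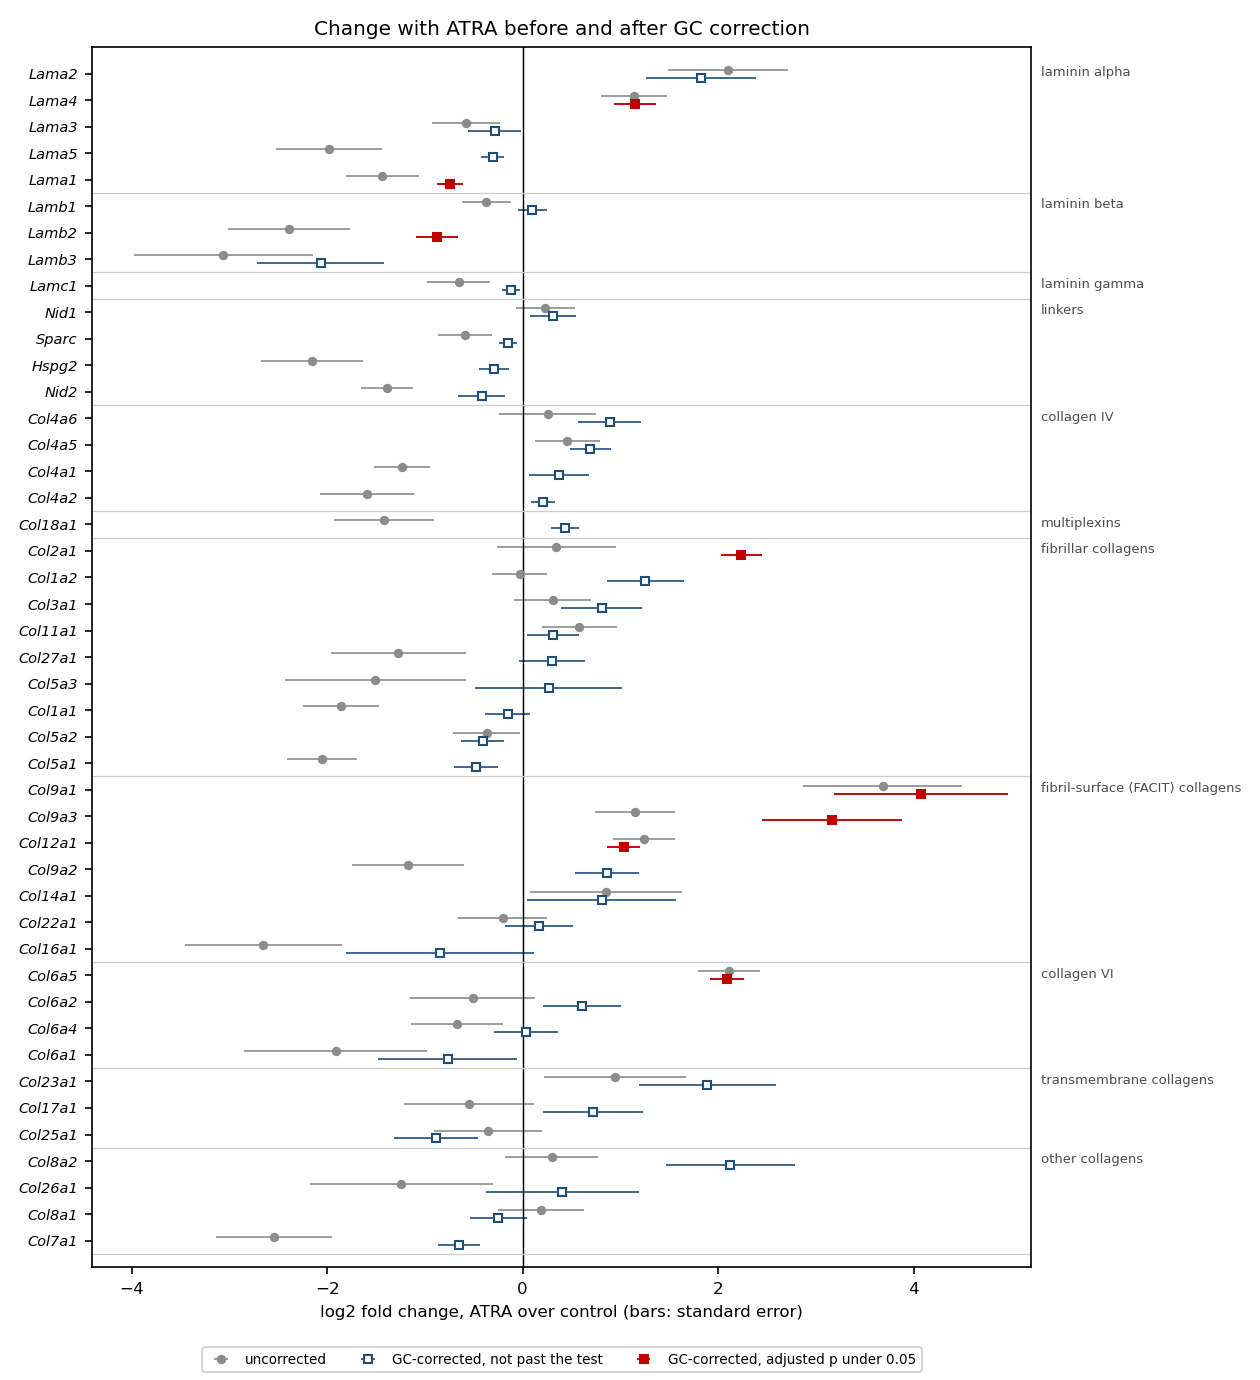
Change of 45 of the 46 tested members with ATRA. The horizontal axis is the log2 fold change of ATRA over control, bars are standard errors, grey circles are uncorrected values and squares are GC-corrected values, filled red where the adjusted p was under 0.05. The 8 filled squares are 6 members above 0 and 2 below it.

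**Figure D2:**
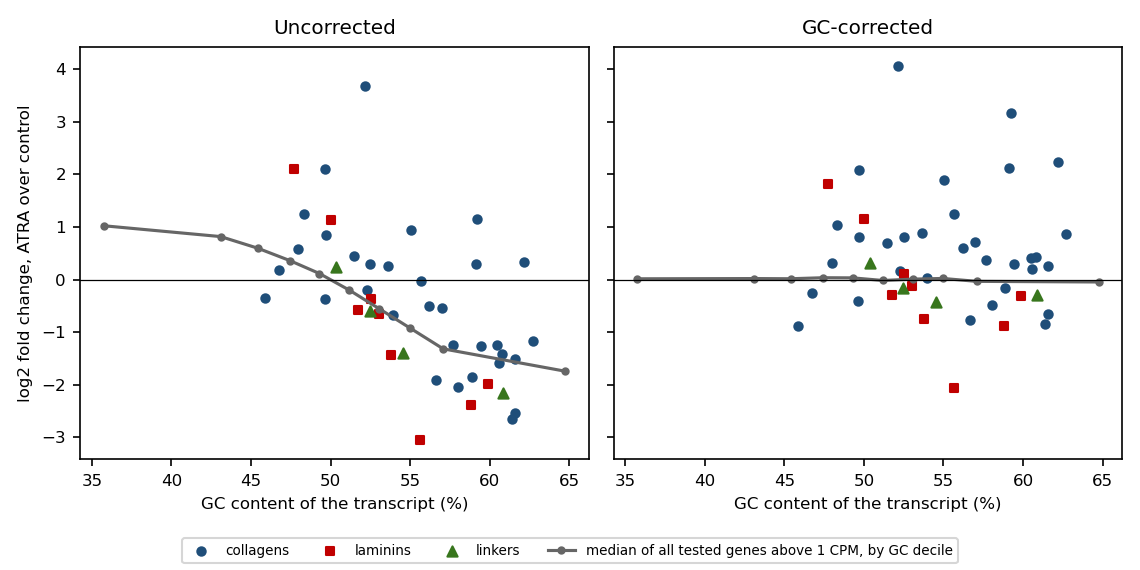
Log2 fold change of ATRA over control (vertical axis) against the GC content of the transcript (horizontal axis, %) for 45 of the 46 tested members, uncorrected on the left and GC-corrected on the right. The grey line joins the medians of all tested genes above 1 CPM in each GC decile; on the left it runs from above 0 to below 0 and most members with a GC content over 55% lie below 0, while on the right the line is flat by construction.

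Among the laminin alpha chains, the abundant Lama1 fell, the scarcer Lama4 rose, and Lama5, the most abundant in CPM, did not pass the test. Lama1, the alpha chain of the early embryo's basement membranes, stood at 69.0 and 65.6 CPM in the controls and 32.2 and 17.4 CPM with ATRA. Both ATRA libraries were below both controls, and after GC correction they still were, at 52.4 and 51.1 CPM against 32.7 and 28.8 CPM. Its log2 fold change was −1.44 uncorrected (SE 0.37, edgeR adjusted p = 0.0816) and −0.75 GC-corrected (SE 0.13, edgeR adjusted p = 0.0269). Lama4, the alpha chain of endothelial and mesenchymal basement membranes, stood at 5.02 and 4.28 CPM in the controls and 10.3 and 10.2 CPM with ATRA. The groups did not overlap in either version, and the log2 fold change was 1.14 uncorrected (SE 0.34, edgeR adjusted p = 0.0883) and 1.15 corrected (SE 0.22, edgeR adjusted p = 0.0294). Lama5, the chain of the laminin that supports stem cell growth in culture, stood at 493 and 376 CPM in the controls and 164 and 55.7 CPM with ATRA, with the second ATRA library well below the first. Its log2 fold change was −1.98 uncorrected and −0.31 corrected (SE 0.11, edgeR adjusted p = 0.111), its corrected levels being 233 and 219 CPM against 196 and 168 CPM. Lama3, the epithelial chain, had −0.58 and −0.29. Lama2, the muscle chain, had 2.10 and 1.82 on 5 and 6 counts in the controls and 10 and 11 with ATRA, and did not pass the test (edgeR adjusted p = 0.0771 after correction). It entered the fit only through the ATRA libraries, the controls being under the filter on low counts.

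Of the beta chains, Lamb2 fell and the far more abundant Lamb1 did not pass the test. Lamb1 stood at 242 and 230 CPM in the controls and 186 and 179 CPM with ATRA, and after GC correction at 205 and 197 CPM against 185 and 246 CPM. The uncorrected groups did not overlap and the corrected ones did, and the log2 fold change went from −0.37 to 0.10 (SE 0.15, edgeR adjusted p = 0.658). Lamb2, the beta chain of mature basement membranes such as those of synapse and glomerulus, stood at 46.4 and 35.2 CPM in the controls and 12.1 and 3.30 CPM with ATRA. ATRA replicate 2 was again the lowest, and after correction the levels were 23.5 and 21.1 CPM against 13.9 and 9.38 CPM. The log2 fold change was −2.39 uncorrected (SE 0.63, edgeR adjusted p = 0.0817) and −0.88 corrected (SE 0.22, edgeR adjusted p = 0.0495), close to the threshold. Lamb3, a partner of Lama3 in epithelia, stood at 4.95 and 4.32 CPM in the controls, and at 0.990 CPM and 0 counts with ATRA, and its corrected log2 fold change of −2.07 did not pass (edgeR adjusted p = 0.0812).

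Lamc1, the gamma chain of most laminins, stood at 518 and 508 CPM in the controls and 402 and 250 CPM with ATRA. Both ATRA libraries were lower, and after correction the gap shrank to 421 and 418 CPM against 404 and 369 CPM, a log2 fold change of −0.12 (SE 0.095, edgeR adjusted p = 0.398). Lamc3 had too few counts to be tested. The laminin alpha genes made up 14.0% and 13.7% of the members' CPM in the controls and 9.77% and 5.57% in the uncorrected ATRA libraries.

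The 4 linkers held a similar part of the members' CPM in each library: 36.8% and 37.1% in the controls and 33.8% and 37.8% with ATRA. None of the 4 passed the test in the uncorrected or GC-corrected fit. Sparc, which binds collagen, was the highest of all members per length, at 209 CPM per kilobase of transcript in the controls and 139 with ATRA. Its levels were 476 and 485 CPM in the controls and 360 and 279 CPM with ATRA, a log2 fold change of −0.59 uncorrected and −0.15 corrected (SE 0.091, edgeR adjusted p = 0.272). Hspg2, the perlecan core protein, stood at 571 and 336 CPM against 145 and 59.0 CPM. It had −2.15 uncorrected, where the groups were well apart, and −0.29 corrected. Nid2 had −1.39 and −0.42, and shares 437 bases of exon (8.45% of its annotated exon bases) with the opposite-strand gene 2700060E02Rik. Nid1 had 0.23 and 0.31.

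**Figure D3:**
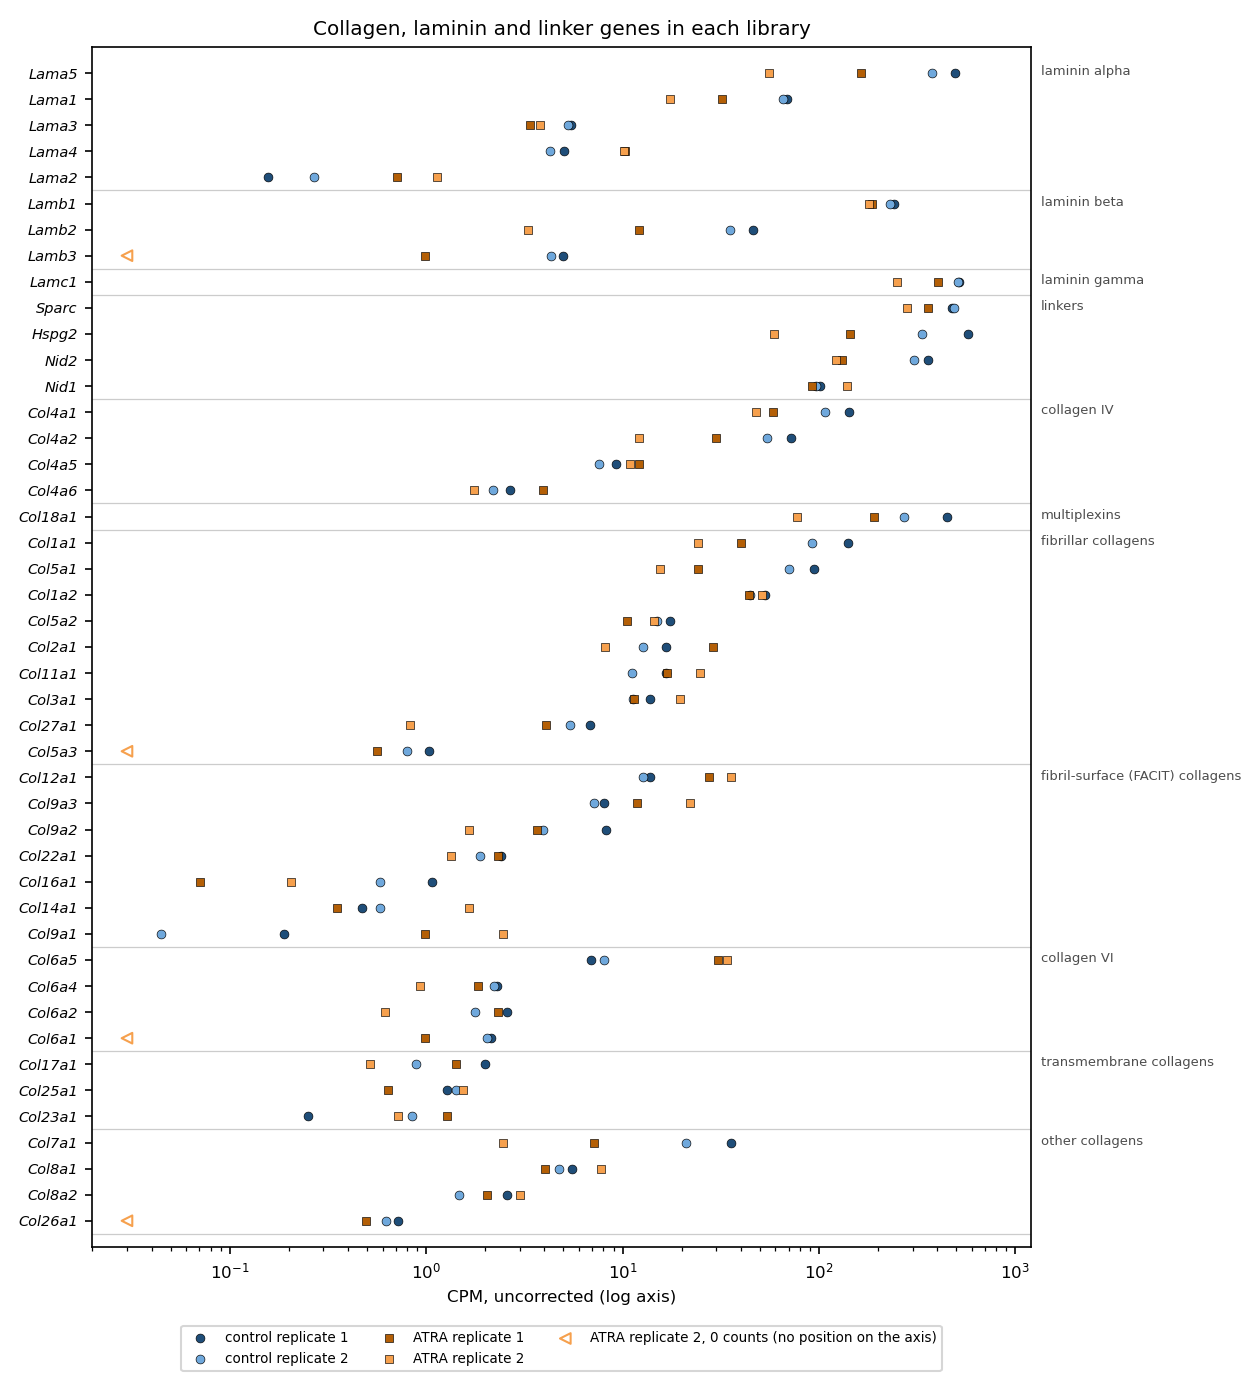
Level of 45 of the 46 tested members in each of the 4 libraries, in uncorrected CPM on a log axis. Members are grouped by role and ordered within each group by mean control level. Circles are controls, squares are ATRA libraries, and open triangles mark 0 counts in ATRA replicate 2, which have no position on a log axis. Hspg2, Lamc1, Lama5 and Sparc reach the highest control levels, and the circles and squares of Col6a5 and Lama1 stand apart.

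For Col4a1, Col4a2 and Col18a1, collagens of basement membranes, the sign of the fold change turned with the GC correction, and no collagen IV gene, nor Col18a1, passed the test in either fit. Col4a1 stood at 143 and 108 CPM in the controls and 58.2 and 48.0 CPM with ATRA, lower in both ATRA libraries. GC-corrected levels were 78.0 and 67.0 CPM against 64.9 and 126 CPM, with the ATRA libraries on both sides of the controls. The log2 fold change was −1.24 uncorrected (SE 0.29, edgeR adjusted p = 0.0783) and 0.37 corrected (SE 0.31, edgeR adjusted p = 0.412). Col4a2, its trimer partner across the shared promoter, stood at 72.4 and 54.3 CPM against 29.8 and 12.1 CPM, and had −1.59 uncorrected and 0.21 corrected (SE 0.13, edgeR adjusted p = 0.278). The X-linked pair Col4a5 and Col4a6 lay above 0 in both versions, with 0.46 and 0.69 for Col4a5 and 0.26 and 0.89 for Col4a6. Col18a1, whose C-terminal fragment is endostatin, stood at 448 and 270 CPM against 191 and 77.1 CPM, and had −1.42 uncorrected and 0.43 corrected (SE 0.14, edgeR adjusted p = 0.0915).

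Among the fibrillar collagens Col2a1 rose after GC correction and Col1a1, the most abundant by mean CPM over the 4 libraries though below Col1a2 in both ATRA libraries, did not pass the test. Col2a1, the collagen of cartilage that is also made by notochord and neuroepithelium in the embryo, stood at 16.7 and 12.7 CPM in the controls and at 29.0 and 8.15 CPM with ATRA. The ATRA libraries lay on both sides of the controls, and only after correction did they stand above them, at 37.4 and 27.0 CPM against 6.83 and 7.11 CPM. The log2 fold change was 0.34 uncorrected (SE 0.61, edgeR adjusted p = 0.673) and 2.24 corrected (SE 0.21, edgeR adjusted p = 0.00836). The uncorrected direction turned with the ATRA library left out, with −0.87 without ATRA replicate 1 (edgeR adjusted p = 0.0057) and 0.99 without ATRA replicate 2 (edgeR adjusted p = 0.00119), while the corrected values were 1.96 and 2.44. Col1a1 stood at 141 and 91.9 CPM against 40.1 and 24.1 CPM, and had −1.86 uncorrected and −0.15 corrected (SE 0.23, edgeR adjusted p = 0.656). Its trimer partner Col1a2 stood at 53.0 and 44.5 CPM against 44.1 and 51.3 CPM, and had −0.03 and 1.25 (SE 0.39, edgeR adjusted p = 0.0811). Col5a1, which starts fibril assembly, had −2.05 and −0.48.

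Of the 7 tested collagens of the fibril surface, 3 were called higher after correction and 0 lower, beside 8.82% and 7.86% of all tested genes. The 3 are among the 6 rises, and they include Col9a1 and Col9a3, whose limits are given below. The share of the fibril-surface collagens in the members' CPM was 0.840% and 0.825% in the controls and 2.19% and 4.11% with ATRA. Col12a1, a FACIT collagen of loose and dense connective tissue, stood at 13.8 and 12.7 CPM against 27.4 and 35.5 CPM. The groups were apart in both versions, with a log2 fold change of 1.24 uncorrected (SE 0.32, edgeR adjusted p = 0.0800) and 1.03 corrected (SE 0.17, edgeR adjusted p = 0.0222). Col9a1, a chain of the cartilage collagen IX, rested on 6 and 1 counts in the controls and 14 and 24 with ATRA. It passed the filter on low counts only through the ATRA libraries, where it is high, so its call is no support beyond these counts. It had 3.68 uncorrected (edgeR adjusted p = 0.0778) and 4.07 corrected (SE 0.89, edgeR adjusted p = 0.0397). Col9a3, another chain of collagen IX, stood at 8.06 and 7.17 CPM against 11.9 and 22.0 CPM, and at 3.96 and 4.25 CPM against 13.9 and 64.0 CPM after correction. The ATRA libraries were higher in both versions but far apart from each other after correction, with log2 fold changes of 1.15 (edgeR adjusted p = 0.106) and 3.16 (SE 0.72, edgeR adjusted p = 0.0426), and 1.77 corrected without ATRA replicate 2. Its annotated exons share 234 bases (6.07%) with the opposite-strand gene Tcfl5, which was itself higher at 61.8 and 66.0 CPM against 51.2 and 51.6 CPM and rose after correction (1.73, edgeR adjusted p = 0.0418). Reads of the shared bases cannot be assigned to either gene without the strand setting, and that part in the Col9a3 value was not tested. The third collagen IX chain, Col9a2, had −1.17 and 0.86.

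Collagen VI held the member with the smallest p. Col6a5, a chain that can take the third place in the collagen VI trimer, stood at 6.90 and 8.06 CPM in the controls and 30.6 and 34.1 CPM with ATRA. The libraries of each group were close to each other and the groups stood well apart. The log2 fold change was 2.11 uncorrected (SE 0.32, edgeR adjusted p = 0.0596) and 2.09 corrected (SE 0.18, edgeR adjusted p = 0.00636), nearly equal, and its transcript GC content of 49.7% was close to the median of all genes. With DESeq2's size factors in place of TMM the uncorrected edgeR fit called it as well. The obligate chains Col6a1 and Col6a2 were low, at 2.13 and 2.05 CPM against 0.990 CPM and 0 counts for Col6a1 and 2.57 and 1.78 CPM against 2.33 and 0.619 CPM for Col6a2, and neither passed. Collagen VI genes made up 0.349% and 0.442% of the members' CPM in the controls and 1.68% and 2.27% with ATRA, most of it Col6a5.

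Of the remaining collagens, Col7a1, the anchoring fibril collagen of skin, stood at 35.8 and 21.1 CPM against 7.14 and 2.48 CPM, and had −2.54 uncorrected and −0.65 corrected (SE 0.21, edgeR adjusted p = 0.0885). Among the transmembrane collagens Col25a1 was narrowly the most abundant by mean CPM over the 4 libraries. It stood at 1.29 and 1.43 CPM against 0.636 and 1.55 CPM, and had −0.36 and −0.89 without passing. Col17a1, at 2.01 and 0.891 CPM against 1.41 and 0.516 CPM, was higher than Col25a1 in the first replicate of each group. The 9 untested members held 13 to 29 counts in all and no more than 0.619 CPM in any library. Across all 55 members, 6 had 0 counts in ATRA replicate 2 and 0 members did in any other library. A count of 0 there allows up to 0.309 CPM (3 counts, counting error only), against 0.0940 CPM in control replicate 1.

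Trimer partners were also compared as ratios of their CPM per kilobase of transcript. Lamb1 over Lamc1 was 0.614 and 0.598 in the controls and 0.609 and 0.942 with ATRA uncorrected, with only ATRA replicate 2 apart. Corrected, it was 0.641 and 0.620 in the controls and 0.605 and 0.876 with ATRA. Lama5 over Lamc1 was 0.638 and 0.495 against 0.273 and 0.149 uncorrected and 0.370 and 0.350 against 0.325 and 0.304 corrected, lower with ATRA in both. Uncorrected, Col4a1 over Col4a2 was 1.92, 1.93 and 1.91 in both controls and ATRA replicate 1 and 3.87 in ATRA replicate 2. Corrected, it was 2.32 and 2.09 in the controls and 1.74 and 3.27 with ATRA, on both sides of the controls. Col1a1 over Col1a2 went from 2.40 and 1.86 to 0.819 and 0.425 uncorrected and from 1.88 and 1.62 to 0.897 and 0.565 corrected, so that the ratio crossed 1 in both versions. The ratios were not tested, as the smallest two-sided p of an exact permutation test of 2 libraries against 2 is 0.333.

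**Figure D4:**
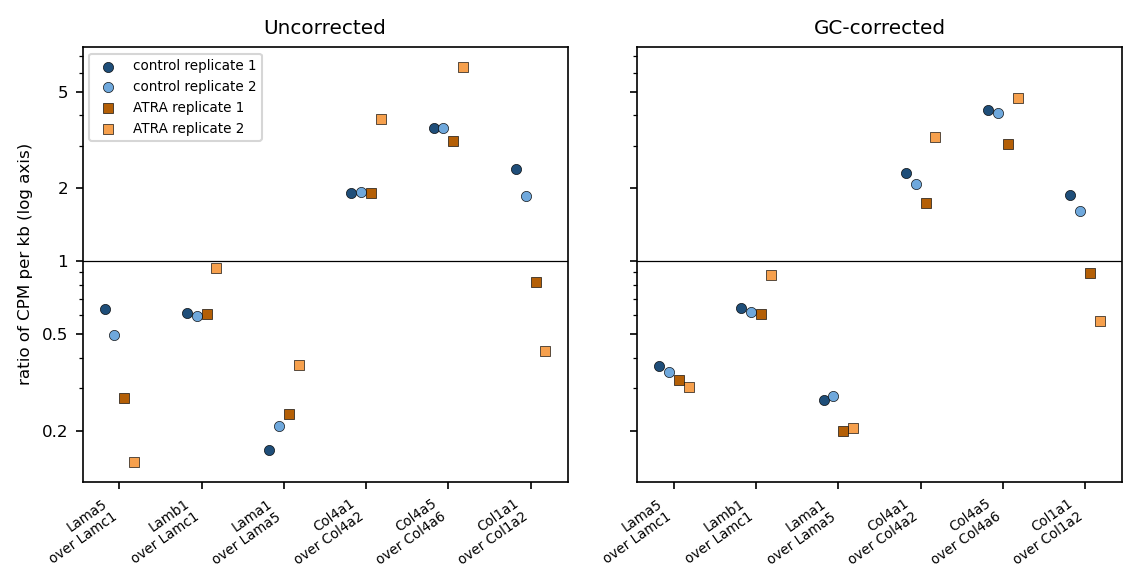
Ratio of CPM per kilobase for 6 pairs of chains that assemble together or replace each other, in each library, uncorrected on the left and GC-corrected on the right (vertical log axis). The ATRA squares of Col1a1 over Col1a2 lie below 1 and the control circles above it in both panels. For Lamb1 over Lamc1 only ATRA replicate 2 is well apart from the controls.

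Genes that modify, cut and cross-link collagen changed in both directions after correction. Of 33 tested collagen processing genes, 0 passed uncorrected, and 6 rose and 2 fell with the correction, with medians of −0.29 and 0.18. Tll1, a protease that trims procollagens, stood at 2.26 and 2.54 CPM against 14.8 and 26.5 CPM and rose by 2.72 in log2 units after correction (SE 0.27, edgeR adjusted p = 0.00902). Pcolce2, an enhancer of that trimming, stood at 31.4 and 32.6 CPM against 12.9 and 10.3 CPM and fell by 1.88 (edgeR adjusted p = 0.0164). Creb3l1, a transcription factor for collagen genes in bone, rose by 1.14 after correction (edgeR adjusted p = 0.0223), where its uncorrected value was −0.57. P4hb, the beta subunit of prolyl hydroxylase, was the most abundant, at 925 and 933 CPM against 1055 and 1048 CPM. Its log2 fold change was 0.18 uncorrected and 0.98 corrected (SE 0.23, edgeR adjusted p = 0.0454). Its corrected levels were 700 and 726 CPM against 1072 and 1741 CPM, with the ATRA libraries far apart from each other.

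Of 23 tested matrix receptor genes, 0 passed uncorrected and 2 rose and 5 fell with the correction, with medians of −0.97 and −0.07. The 5 include Rpsa, which encodes a ribosomal protein, so its level need not reflect matrix receptors. It stood at 635.8 and 595.5 CPM against 250.9 and 106.8 CPM and fell by 1.70 after correction (edgeR adjusted p = 0.0348). Itgb1, the beta chain of the main laminin and collagen receptors, stood at 600 and 606 CPM against 989 and 1424 CPM and rose by 0.36 after correction (edgeR adjusted p = 0.0452). Dag1, the laminin receptor dystroglycan, overlapped between the groups uncorrected, at 271.6 and 241.4 CPM against 337.6 and 248.5 CPM. Its log2 fold change was 0.19 uncorrected and 0.69 corrected (edgeR adjusted p = 0.0192). Ddr1, a collagen-binding receptor kinase, stood at 124 and 79.6 CPM against 18.7 and 8.66 CPM and fell by 1.16 after correction (edgeR adjusted p = 0.0203), and the syndecan Sdc4 fell by 1.09 (edgeR adjusted p = 0.0171). Of 38 tested other matrix genes, 0 passed uncorrected and 10 rose and 2 fell with the correction, with medians of −0.11 and 0.23. Fbn2, the embryonic fibrillin, stood at 8.65 and 9.44 CPM against 37.1 and 31.5 CPM and rose by 2.39 (edgeR adjusted p = 0.00491). Mmp9, a gelatinase that cuts collagen IV, rose by 2.09 (edgeR adjusted p = 0.0107), and Npnt, a basement membrane ligand of integrins, by 1.24 (edgeR adjusted p = 0.0203). Fn1, fibronectin, was the most abundant at 1232 and 1176 CPM against 639 and 425 CPM, and fell by 0.53 (edgeR adjusted p = 0.0229). Over these 3 lists the uncorrected counts of 0 stand beside 0.603% of all tested genes and the corrected counts beside 16.7%. An unadjusted p under 0.05 was reached uncorrected by 15 of the processing genes, 13 of the receptors and 13 of the other matrix genes. The share over all tested genes was 40.1%. DESeq2 called 4 higher and 9 lower, 1 higher and 10 lower, and 4 higher and 6 lower in the same order. Of all genes DESeq2 called 11.4% higher and 18.7% lower.

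Markers of stem cells and of other cell types that can make matrix were read in the same libraries. The 8 stem cell markers summed to 3619 and 3621 CPM in the controls and 1649 and 1302 CPM with ATRA, and after correction 6 of the 8 fell and 0 rose. Of 16 markers of extraembryonic endoderm, the cell type of the F9 comparison, 10 were tested and after correction 5 rose and 1 fell, beside 8.82% and 7.86% of all tested genes. Gata6 stood at 0.658 and 0.445 CPM against 2.33 and 6.19 CPM, Sox7 at 0.784 and 0.757 CPM against 3.25 and 3.51 CPM, and Dab2 at 21.7 and 22.3 CPM against 42.3 and 66.4 CPM. The 1 that fell was Krt8, at 202 and 180 CPM against 67.6 and 20.1 CPM. The other tested markers of the list did not pass. Of these, Thbd (−0.11), Cubn (−0.56) and Krt18 (−0.16) had corrected log2 fold changes below 0, and Foxa2 (3.59) lay above it. The summed level of that list went from 459 and 447 CPM to 265 and 158 CPM. Most of it was the keratin genes Krt8 and Krt18, except in ATRA replicate 2. There Krt8 stood at 20.1 CPM, Krt18 at 48.5 CPM and Dab2 at 66.4 CPM. Ttr was at 0 in all libraries and 7 of the 16 were under 1 CPM in each. The 14 markers of fibroblasts or other mesenchyme summed to 593 and 594 CPM against 440 and 294 CPM, and of the 10 tested 3 rose after correction (Dcn, Meox1 and Pdgfrb) and 0 fell. Dcn stood at 0.909 and 1.51 CPM against 7.70 and 7.12 CPM and Meox1 at 0.314 and 0.134 CPM against 2.69 and 1.24 CPM, while Fap was at 0 in 3 libraries. Thy1 stood at 5.17 and 3.88 CPM against 1.63 and 0.825 CPM, and Acta2 at 155 and 178 CPM against 118 and 40.4 CPM. Tagln stood at 412 and 393 CPM against 287 and 220 CPM. In both ATRA libraries Thy1, Acta2 and Tagln lay below both controls, uncorrected and corrected, without passing the test. Trophoblast markers summed to 50.1 and 49.5 CPM against 61.4 and 63.1 CPM with Tpbpa at 0, neural markers to 384 and 323 CPM against 301 and 399 CPM, and mesoderm markers to 197 and 167 CPM against 25.5 and 29.1 CPM. Among the neural markers Sox1 stood at 1.60 and 1.56 CPM against 23.8 and 30.7 CPM. Tubb3, in the same list, went from 113 and 95.9 CPM to 20.0 and 9.80 CPM. After correction 2 of 5 tested trophoblast markers rose and 0 fell, 3 of 6 neural markers rose and 1 fell, and 1 of 6 mesoderm markers rose and 2 fell. Their part in the collagen and laminin values was not tested.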

How the data were processed

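RNA was measured in 4 libraries, grouped by their titles. The authors deposited raw read counts for each gene symbol. HTSeq 0.6.0, TopHat2 2.0.7, Cuffdiff 2.0.2, Cufflinks 2.0.2 and the build mm10 are listed in the submitters' processing notes without their roles. How strand was treated was not given in the sources used here, nor was the annotation. Reads in no gene (63.4% to 66.2%) and other summary lines were left out. Replicates differed by more than sampling noise (chi-square per degree of freedom 9.65 for the controls and 76.9 for ATRA).

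Counts were tested with edgeR 4.0.16 in R 4.3.3 (expression filter by group, TMM factors, robust quasi-likelihood fit, Benjamini-Hochberg over all tested genes, threshold 0.05). CPM uses TMM-scaled library sizes. For the GC correction, each library's log2 CPM deviations (prior count 2, genes with a mean log2 CPM above 1) were modelled by robust regression (MASS 7.3.60.0.1) as a natural spline (5 degrees of freedom) of the GC content of the longest coding transcript, and the fit entered edgeR as an offset. GC content, length and coordinates are from GENCODE M21 (GRCm38) and promoters from RefSeq. Alternatives were DESeq2 1.42.0, its size factors, no filter, length, a replicate block and leaving out each library. The code was tested on simulated data.

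The members, gene lists and alternatives, the GC correction included, were chosen with earlier results of these data known. The text names each member called in either fit, the most abundant member of each group by mean CPM, trimer partners of those, and from each other list the 3 called genes with the smallest p and the most abundant gene. Hspg2, Nid1, Nid2, Col5a1, Col9a2, Col6a1, Col6a2, Col17a1, Rpsa, Tcfl5, 2700060E02Rik and the marker genes given singly were named after their values were seen. The values of a tested member are not reported here; counts and sums include it.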

Additional observations from a re-analysis of the deposited data

How the results depend on the processing

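The counts of genes past the test depended on the processing in both directions, and they are given here as higher and lower, in turn for the collagen, laminin and linker genes, the collagen processing genes, the matrix receptors and the other matrix genes. The shares of all tested genes, higher and lower, follow each setting. The uncorrected edgeR fit gave 0 and 0 in each of the 4, beside 0.435% and 0.168%. DESeq2's size factors in edgeR gave 1 and 0, 1 and 0, 0 and 0, and 0 and 0, beside 0.708% and 0.386%. No filter on low counts gave 2 and 12, 1 and 7, 0 and 7, and 3 and 5, beside 4.32% and 10.5%. DESeq2 gave 4 and 12, 4 and 9, 1 and 10, and 4 and 6, beside 11.4% and 18.7%. The GC correction gave 6 and 2, 6 and 2, 2 and 5, and 10 and 2, beside 8.82% and 7.86%. A correction for GC content and length gave 6 and 2, 6 and 1, 2 and 5, and 9 and 2, beside 8.2% and 7.77%. Leaving out 1 library at a time gave 0 to 10 and 0 to 22, 0 to 8 and 0 to 18, 0 to 7 and 0 to 13, and 0 to 10 and 0 to 18 uncorrected. With the GC correction it gave 0 to 14 and 0 to 8, 0 to 12 and 0 to 7, 0 to 5 and 0 to 6, and 0 to 18 and 0 to 5. In these fits the lone library is assumed to vary like the other group, and all the high counts came from leaving out an ATRA library, where most or many genes were called. Why the counts differ between settings was not tested.

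The replicate numbers have no stated meaning. Deviations of same-numbered libraries correlated at 0.25 uncorrected and −0.07 GC-corrected over 12153 genes, which does not show that they pair the samples. With the replicate number as a block the counts were 4 and 15, 2 and 11, 0 and 10, and 4 and 8, in a fit that called 29.5% of all genes (8.68% higher and 20.9% lower). With the block and the GC correction they were 8 and 3, 7 and 2, 1 and 5, and 10 and 4, beside 20.6% of all genes (10.4% higher and 10.2% lower).

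Several log2 fold changes turned sign, and apart from the GC fits themselves the cause was not tested. Of the genes named by the rule, below 0 uncorrected and above it with the GC correction were Col18a1 (0.43), Col1a2 (1.25), Col4a1 (0.37), Col4a2 (0.21), Creb3l1 (1.14) and Lamb1 (0.10). Over all tested members 13 turned in this way, Col9a2 and Col6a2 among them. With GC content and length they were 0.33, 1.15, 0.26, 0.10, 1.13 and 0.0051, and with GC content and the block 0.44, 1.15, 0.32, 0.21, 1.15 and 0.087. Leaving out 1 library at a time, uncorrected and GC-corrected fits together, these 6 ranged from −2.23 to 0.61 (Col18a1), −0.16 to 1.78 (Col1a2), −1.43 to 0.81 (Col4a1), −2.41 to 0.24 (Col4a2), −1.16 to 1.34 (Creb3l1) and −0.41 to 0.30 (Lamb1). The same ranges were −2.29 to 0.14 for Col1a1, −1.37 to 0.18 for Col25a1, −0.87 to 2.44 for Col2a1, −0.49 to 1.08 for Col4a6, −0.061 to 0.76 for Dag1 and −0.076 to 0.62 for Nid1. Depth was lowest in the ATRA group. The 9 members with 13 to 29 counts in all were removed by the filter on low counts, and all 9 entered the fit without it.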
